A study of Mus musculus with 12 samples.

Results

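Solute carrier (SLC) proteins move sugars, acids, ions, amino acids, vitamins and drugs across membranes, and in the retinal pigment epithelium (RPE) they set the traffic between the choroidal blood supply and the photoreceptors. The genes described here are those whose symbol starts with Slc and a digit or with Slco and whose mean over the 6 wild-type (WT) libraries was at least 100 normalized counts. *Slc45a2*, *Slc24a5*, *Slc40a1* and pseudogenes were left out. In all, 231 of the 28591 genes in the table met the rule, out of 363 genes with such a symbol. Of the 231, 227 were counted as carriers, including the carrier heavy chain *Slc3a2* and the lipocalin receptor *Slc22a17*. The others, *Slc9a3r1*, *Slc9a3r2*, *Slc4a1ap* and *Slc7a6os*, are named after a carrier and encode other proteins. The limit was set on the WT level alone. The WT levels below are therefore a description, genes just above the limit were kept in part because their WT values were high, and carriers that rose from a lower level fall outside the set.

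RPE RNA was compared between 6 WT mice (C57BL/6J) and 6 rd6 mice (*Mfrp* rd6/rd6), both 1 mo of age. *Mfrp* encodes a membrane protein of the RPE, and rd6 is an inherited allele present in every cell of these animals. Each library held the RPE of both eyes, prepared from eyecups after the neural retina had been removed, so that the design gives 6 libraries per genotype. The rd6 allele was bred in a strain of its own, and strain differences near *Mfrp* cannot be told apart from the allele. In this comparison *Mfrp* itself was counted at 30132 to 45442 normalized counts in WT (median 41136) and 20442 to 29732 in rd6 (median 26281), and every rd6 library lay below every WT library (log2 fold change -0.63 ± 0.11, q = 0.00126). Here ± is the standard error (SE) of the limma fit and q its Benjamini-Hochberg adjusted p-value over the 17768 genes tested, and log2 fold changes are rd6 minus WT. Genes with q below 0.05 are said to have risen or fallen, and those whose log2 fold change was also at least 0.81 in size, the fold limit of the study, are said to be past the fold limit.

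Each library held 28907262 to 33152725 reads on genes, and the SLC genes took 2.73% to 3.14% of them in WT and 2.49% to 2.76% in rd6. WT replicate 4 stood apart. It held 139703 normalized counts of the surface epithelium keratins *Krt5*, *Krt14* and *Krt12* together, against 3.11 to 5131 in the other WT libraries and 245 to 41600 in rd6. It was the lowest WT library for 111 of the 231 SLC genes and the highest for 51. WT replicate 1 was the highest for 66, and rd6 replicate 5 was the lowest rd6 library for 95. The libraries carried the defining RPE markers, apart from *Best1*, which was at 9.33 to 30.9 normalized counts in WT. The 9 RPE markers summed to 928637 to 1373670 in WT and 602129 to 868339 in rd6, with 4 lower and 0 higher at q below 0.05. The largest share of these sums was *Rgr*, with means of 622536 in WT and 338693 in rd6. *Rdh5*, *Mitf*, *Otx2*, *Tyr* and *Best1* did not pass. In bulk tissue, fewer RPE cells and less RNA per cell cannot be told apart. Of 9 microglia and macrophage markers 8 were higher, with sums of 13714 to 19179 in WT and 19624 to 24811 in rd6. Most of these sums was *Csf1r*, which did not pass, and the other 8 summed to 416 to 793 in WT and 2088 to 3959 in rd6. The part of these shifts in the results below was not tested.

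As background, the RPE imports glucose from the choroid with SLC2A1 (GLUT1) and passes much of it to the photoreceptors, which return lactate. Lactate is taken up at the apical membrane by SLC16A1 (MCT1) and released toward the blood by SLC16A8 (MCT3), both of which need the chaperone basigin (*Bsg*). Bicarbonate, chloride and sodium carriers move fluid out of the subretinal space, and organic anion, thyroid hormone, taurine and GABA carriers clear or supply small molecules.

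In rd6 RPE, 26 of the 231 SLC genes rose and 42 fell at q below 0.05 (11.3% and 18.2%). Over all genes tested the shares were 11.4% higher and 11.6% lower, and among the 12757 genes with the same limit on the WT mean they were 10.9% and 14.4%. Past the fold limit, 5 rose (2.16%) and 7 fell (3.03%), beside 4.69% and 2.12% of all genes tested and 2.41% and 1.8% of those with the same WT limit. This balance turned with the limit, since with members taken by an rd6 mean of at least 100 there were 8 higher and 4 lower past the fold limit, and 30 higher and 39 lower at q alone. All rd6 libraries were above all WT libraries for 16 SLC genes and below them for 20, where the shares of all genes tested were 5.77% and 5.67%, and of those with the same WT limit 5.29% and 7.09%. The median log2 fold change was -0.04 over the SLC genes and 0.00 over all genes tested. The 5 genes that rose past the fold limit were *Slc37a2*, *Slc36a2*, *Slco2b1*, *Slc16a3* and the non-carrier *Slc9a3r2*. The 7 that fell were *Slc47a1*, *Slc6a12*, *Slc25a34*, *Slc6a13*, *Slco4a1*, *Slc16a1* and *Slc44a3*, of which the first 3 had an rd6 mean below 100 and met the rule through WT alone. Of the 68 that passed q, 49 also passed without any 1 library. The other 19 reached q values of 0.0502 to 0.09. *Slc26a2*, *Slc16a7*, *Slc25a12*, *Slc25a33*, *Slc37a4* and *Slc8a3* lost the call without 1 to 3 libraries, *Slc23a4*, *Slc30a5*, *Slc25a42*, *Slc27a1*, *Slc38a9*, *Slc10a3*, *Slc16a9* and *Slc9a3r2* without 4 to 6, and *Slc5a3*, *Slc39a11*, *Slc4a8*, *Slco2a1* and *Slc44a3* without 8 or 9. Without WT replicate 4, 8 rose and 10 fell past the fold limit, and without rd6 replicate 5 the counts were again 8 and 10. Without the 3 libraries richest in surface epithelium keratins (WT replicate 4 and rd6 replicates 1 and 5) they were 5 and 11.

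**Figure D1:**
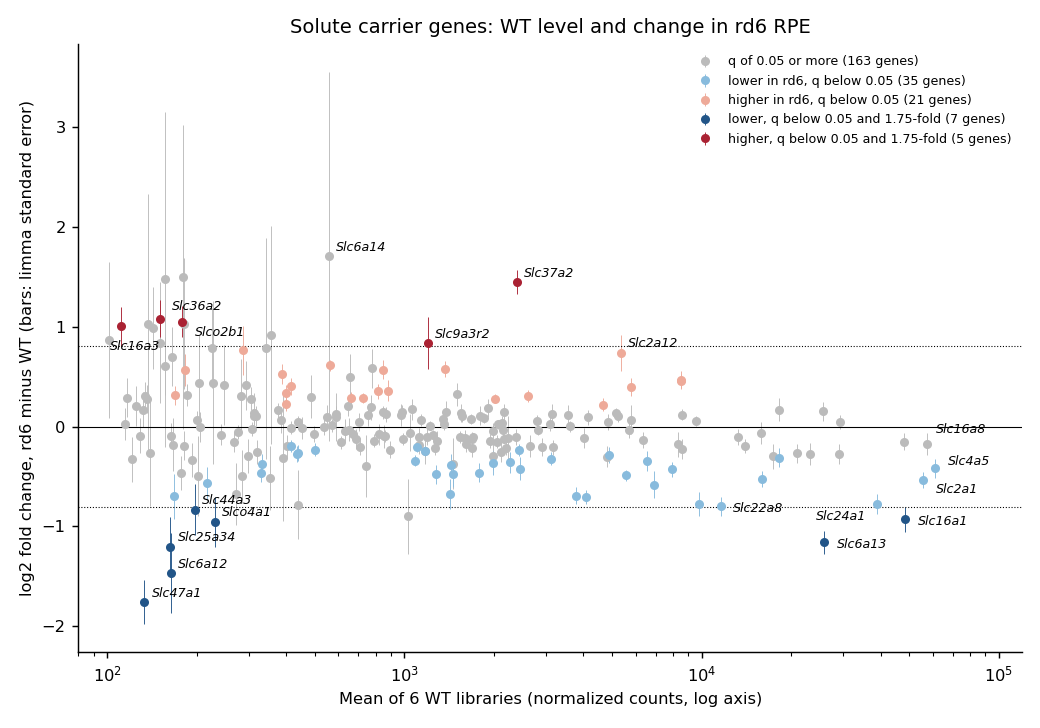
Mean WT level (normalized counts, log axis) against the log2 fold change of rd6 minus WT for the 231 SLC genes, with bars for the limma standard error and dotted lines at the fold limit. Among the most abundant genes the colored points lie below 0, while the long bars at low levels belong to genes such as *Slc6a14* whose values spread widely between libraries.

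The direction differed with the WT level, which itself enters the fold change. Of the 20 SLC genes with a WT mean of at least 10000, 8 fell and 0 rose, and among all 359 genes at that level 35.9% fell and 6.69% rose. Between 1000 and 10000, 21 of 95 SLC genes fell and 10 rose (all genes, 20.9% and 8.45%). Between 100 and 1000, 13 of 116 fell and 16 rose (all genes, 8.84% and 12.8%). Falls thus outnumbered rises among abundant genes of any kind. The 5 most abundant SLC genes took 26.6% to 30.0% of the SLC reads in the WT libraries and 24.2% to 26.1% in the rd6 libraries.

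By mean WT level, the leading SLC genes were the sodium bicarbonate cotransporter *Slc4a5*, the lactate carrier *Slc16a8*, the glucose carrier *Slc2a1*, the lactate carrier *Slc16a1* and the glutamate and aspartate carrier *Slc1a1*. The WT ranges of *Slc4a5* (49104 to 66471 normalized counts), *Slc16a8* (40471 to 63892) and *Slc2a1* (44630 to 62459) overlapped. Per kilobase of merged exons the order of the WT means changed, with *Slc16a8* first at 25165 normalized counts per kb. *Slc2a1* followed at 15879, the mitochondrial ADP/ATP carrier *Slc25a4* at 12418, *Slc16a1* at 10954 and *Slc4a5* at 10530.1.

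**Figure D2:**
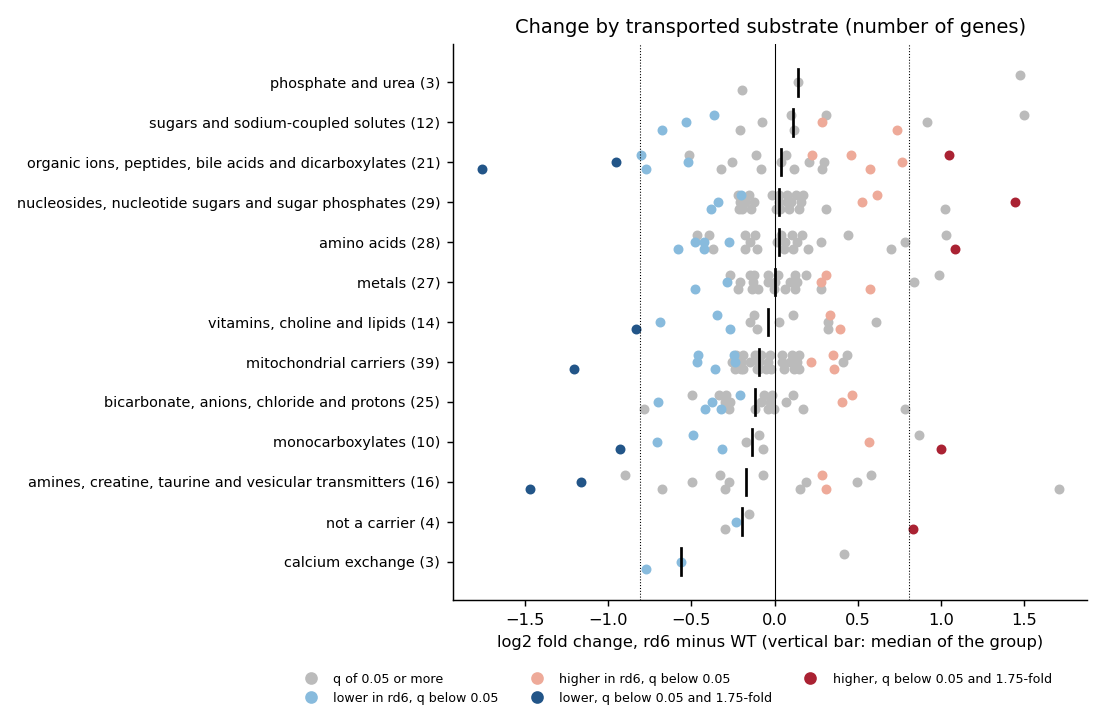
Log2 fold change of rd6 minus WT for each SLC gene, grouped by transported substrate with the number of genes in parentheses, where black bars mark group medians and dotted lines the fold limit. Monocarboxylate and organic ion carriers have members past the fold limit on both sides. Genes with q below 0.05 lie on both sides of 0 in every group except calcium exchange, with 2 of 3 lower, and phosphate and urea, with 0 of 3.

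Sequence upstream of the gene start was available in RefSeq (GRCm38.p6) for 179 of the 231 genes, and the 250 bases before the start are shown for 4 genes that carry the results below, ended where the annotated gene begins (after 237 bases for *Slc16a8* and 189 for *Slc6a13*). They are the pair of RPE lactate carriers, of which the first fell past the fold limit, the most abundant carrier past the fold limit among the amine carriers (*Slc6a13*), and the gene with the largest rise (*Slc37a2*). Capitals mark matches to motifs searched on both strands. The E-box, read by MITF and related factors, was CACGTG or CATGTG, and the latter reads CACATG on the other strand. The OTX2 site was TAATCC, which reads GGATTA on the other strand, and the CREB site was TGACGTCA.
*Slc16a1*, chr3:104638414-104638663, + strand: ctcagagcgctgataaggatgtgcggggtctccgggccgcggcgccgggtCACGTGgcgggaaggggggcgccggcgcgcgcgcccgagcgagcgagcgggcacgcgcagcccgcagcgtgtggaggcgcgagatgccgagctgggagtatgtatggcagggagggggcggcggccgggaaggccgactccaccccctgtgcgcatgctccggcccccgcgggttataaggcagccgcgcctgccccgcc
*Slc16a8*, chr15:79254762-79254998, - strand: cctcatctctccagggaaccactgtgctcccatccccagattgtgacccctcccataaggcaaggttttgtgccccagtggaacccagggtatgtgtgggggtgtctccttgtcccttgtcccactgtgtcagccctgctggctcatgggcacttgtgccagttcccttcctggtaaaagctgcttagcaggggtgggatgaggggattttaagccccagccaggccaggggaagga
*Slc6a13*, chr6:121300038-121300226, + strand: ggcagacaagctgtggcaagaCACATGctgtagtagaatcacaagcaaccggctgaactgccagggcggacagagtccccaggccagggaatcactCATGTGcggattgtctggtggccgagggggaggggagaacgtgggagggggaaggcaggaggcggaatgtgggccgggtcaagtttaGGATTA
*Slc37a2*, chr9:37255739-37255988, - strand: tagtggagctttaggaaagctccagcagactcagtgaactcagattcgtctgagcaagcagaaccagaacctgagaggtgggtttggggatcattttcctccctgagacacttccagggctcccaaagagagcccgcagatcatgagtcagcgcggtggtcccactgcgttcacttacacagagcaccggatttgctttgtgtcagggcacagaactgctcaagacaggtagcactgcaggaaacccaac
The *Slc16a1* stretch held CACGTG 200 bases before the start. The *Slc6a13* stretch held CACATG at 229, CATGTG at 154 and GGATTA at 67 bases before the start, counted from the listed start nearest to the annotated gene, 61 bases away. The other pair held none of these letters. An E-box of either kind occurred in 20.1% of the 179 full SLC stretches of 250 bases and in 17.6% of all 27025, CACGTG in 11.2% and 6.05%, the OTX2 site in 5.59% and 6.38% and the CREB site in 1.12% and 1.62%. Among the SLC genes that fell, 18.8% of 32 held an E-box, and among those that rose 20% of 20. These matches are letters in a window and no measure of binding.

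Of the 10 monocarboxylate (SLC16) carriers, 4 fell, 2 rose and 4 did not pass the test. *Slc16a1* (chromosome 3, 104638668 to 104658462, + strand), the carrier that brings lactate into the RPE, was at 37619 to 54015 normalized counts in WT (median 50255) and 18050.4 to 30789 in rd6 (median 27229). The ranges did not overlap, and the level was 1.91-fold lower in rd6 (log2 fold change -0.93 ± 0.13, q = 0.000201). *Slc16a8* (chromosome 15, 79251014 to 79254761, - strand), the basolateral lactate carrier of the RPE, was at 40471 to 63892 normalized counts in WT (median 60524) and 44835 to 56867 in rd6 (median 50154). The groups overlapped and the gene did not pass the test (log2 fold change -0.17 ± 0.11, q = 0.293). WT replicate 4 was the lowest WT value at 40471, and without it the log2 fold change of *Slc16a8* was -0.27 with q = 0.0185. The ratio of *Slc16a1* to *Slc16a8* within a library was 0.82 to 0.93 in WT and 0.388 to 0.574 in rd6. This ratio is between counts of genes of unequal length, so that it compares libraries and not the levels of both carriers. This and the other ratios below were chosen with these values known and are given as a description, with no test.

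*Slc16a6*, a carrier of ketone bodies, was at 3406 to 4773 normalized counts in WT (median 4116) and 2318 to 2658 in rd6 (median 2523) with no overlap (log2 fold change -0.70 ± 0.07, q = 1.65e-05). Of its exonic bases 21.5% are shared with other annotated genes, and how its reads were assigned is uncertain. *Slc16a9* fell by 0.31 on the log2 scale from a WT median of 18854 (q = 0.0308) and its groups overlapped.

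The rises were in carriers that were scarce in WT RPE. *Slc16a3* (MCT4), the lactate exporter of glycolytic cells, was at 72 to 162 normalized counts in WT (median 97.9) and 180.5 to 265 in rd6 (median 213), and all rd6 libraries were above all WT libraries (log2 fold change 1.00 ± 0.20, q = 0.00267). Its WT mean of 111 is close to the limit of the rule. The ratio of *Slc16a3* to *Slc16a8* was 0.00113 to 0.00266 in WT and 0.00325 to 0.00547 in rd6. *Slc16a7* (MCT2), a carrier with a high affinity for pyruvate, was at 149 to 217 normalized counts in WT (median 184) and 191 to 364 in rd6 (median 282) (log2 fold change 0.57 ± 0.16, q = 0.0215), and without rd6 replicate 2 its q was 0.0502. Markers of skeletal muscle, a tissue rich in *Slc16a3*, summed to 10887 to 41198 in WT and 36474 to 53427 in rd6, with 2 of 4 higher, and microglia markers rose as given above. Their part in the rise of *Slc16a3* was not tested.

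Among the partners of these carriers, *Bsg*, the chaperone of SLC16A1, SLC16A3 and SLC16A8, was at 83111 to 126215 normalized counts in WT (median 111459) and 79050.1 to 101048 in rd6 (median 91006) and did not pass the test (log2 fold change -0.29 ± 0.10, q = 0.0681). Without WT replicate 4 its log2 fold change was -0.36 with q = 0.0054, and edgeR on the recovered reads gave q = 0.0433. The lactate dehydrogenase subunits *Ldha* (log2 fold change 0.60 ± 0.09, q = 0.000351) and *Ldhb* (log2 fold change 0.47 ± 0.09, q = 0.00221) and the mitochondrial pyruvate carrier subunit *Mpc2* (log2 fold change 0.23 ± 0.07, q = 0.0406) rose. Of the whole list of 31 partners of these and the ion carriers, 29 were tested, 6 rose and 1 fell, and only *Aqp1* was past the fold limit.

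**Figure D3:**
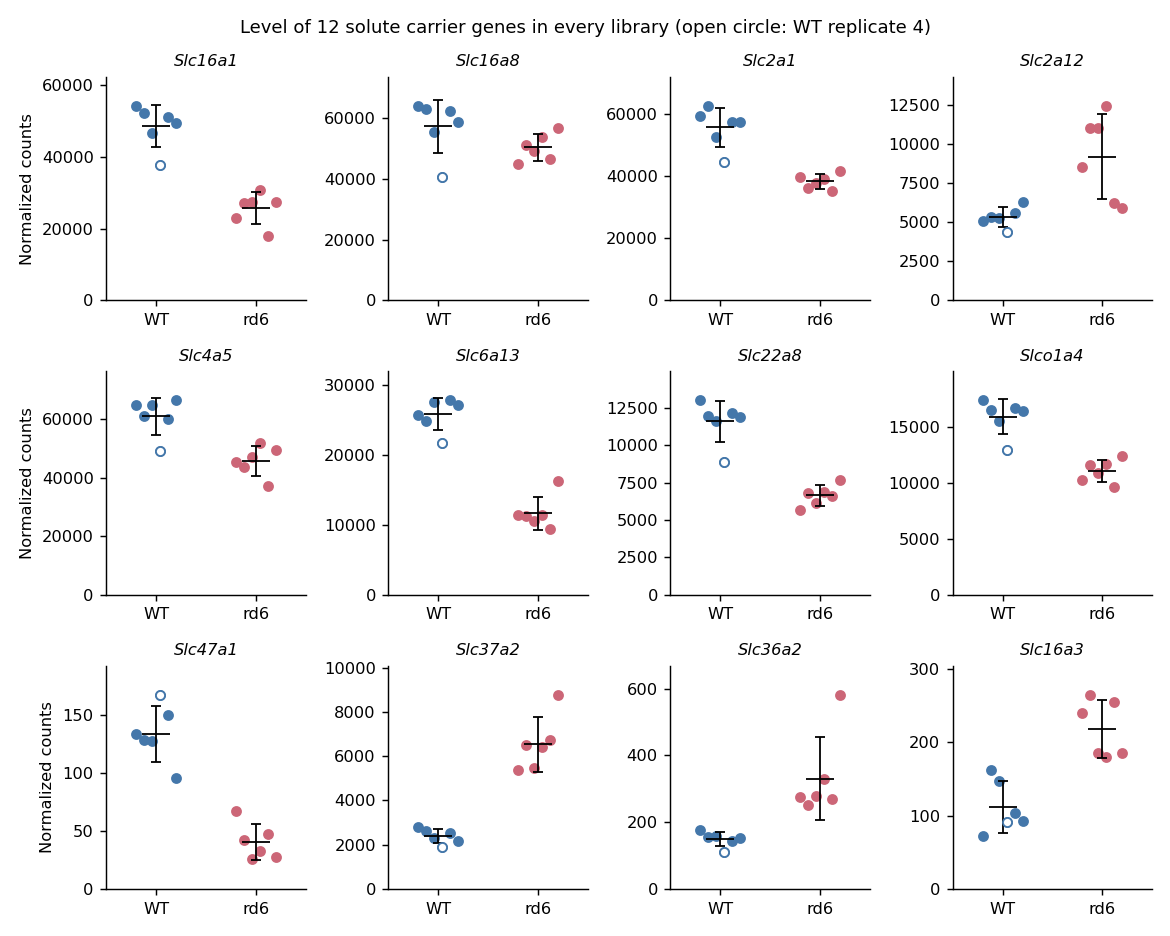
Normalized counts of 12 SLC genes in each of the 6 WT and 6 rd6 libraries (points), with the group mean and SD in black and WT replicate 4 as an open circle; each axis starts at 0. The genotypes do not overlap for *Slc16a1*, *Slc2a1*, *Slc6a13*, *Slc22a8*, *Slco1a4*, *Slc47a1*, *Slc37a2*, *Slc36a2* and *Slc16a3*, while *Slc16a8*, *Slc2a12* and *Slc4a5* overlap.

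Of the 12 carriers of sugars and sodium-coupled solutes, 3 fell, 2 rose and 7 did not pass. *Slc2a1*, the main glucose carrier of the RPE, was at 44630.4 to 62459 normalized counts in WT (median 57428) and 35326 to 41609 in rd6 (median 38462). The genotypes did not overlap, and the level was 1.45-fold lower in rd6 (log2 fold change -0.53 ± 0.08, q = 0.000561). The ratio of *Slc16a1* to *Slc2a1* within a library was 0.833 to 0.908 in WT and 0.511 to 0.785 in rd6. *Slc2a12*, another facilitative sugar carrier, went the other way, at 4393 to 6279 normalized counts in WT (median 5336) and 5919 to 12436 in rd6 (median 9806) (log2 fold change 0.74 ± 0.18, q = 0.00981). Its groups overlapped, since rd6 replicates 5 and 6 lay at 6248 and 5919 while the other rd6 libraries lay above every WT library. The sodium iodide symporter *Slc5a5* (log2 fold change -0.68 ± 0.15, q = 0.00581) and the inositol carrier *Slc5a3* (log2 fold change -0.36 ± 0.12, q = 0.0436) fell, and *Slc50a1*, a sugar carrier of the SWEET family, rose without overlap (log2 fold change 0.29 ± 0.05, q = 0.00177). Without WT replicate 4 the q of *Slc5a3* was 0.0667.

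Of the 25 carriers of bicarbonate, other anions, chloride and protons, 5 fell, 2 rose and 18 did not pass. *Slc4a5*, the most abundant SLC gene of WT RPE, was at 49104 to 66471 normalized counts in WT (median 62980.3) and 37340.4 to 51824 in rd6 (median 46191). The groups overlapped only through WT replicate 4, at 49104, and the gene fell (log2 fold change -0.42 ± 0.10, q = 0.00744). The chloride bicarbonate exchanger *Slc4a2* was at 21335 to 31886 normalized counts in WT (median 30215) and 19602 to 26309 in rd6 (median 24010.2) and did not pass (log2 fold change -0.28 ± 0.10, q = 0.0694). WT replicate 4 was again the lowest WT library, and without it the log2 fold change was -0.36 with q = 0.00298. The anion exchanger *Slc26a7* was at 14786 to 20130.5 normalized counts in WT (median 19032) and 16311 to 25018 in rd6 (median 21239.9) and did not pass (log2 fold change 0.17 ± 0.12, q = 0.333). Neither did the bicarbonate carriers *Slc4a4* (log2 fold change -0.12 ± 0.22, q = 0.742) and *Slc4a7* (log2 fold change -0.29 ± 0.17, q = 0.234). The anion exchanger *Slc26a4* ranged from 7.89 to 1346 in WT, with the highest value in replicate 4, and did not pass (log2 fold change 0.78 ± 1.10, q = 0.649).

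*Slc12a2*, the sodium potassium chloride cotransporter NKCC1, was at 7590.5 to 9367 normalized counts in WT (median 8415) and 9339 to 13798 in rd6 (median 11899.5) and rose with a slight overlap (log2 fold change 0.47 ± 0.09, q = 0.00341). The endosomal sodium proton exchanger *Slc9a9* rose without overlap (log2 fold change 0.41 ± 0.08, q = 0.00429). Falls were seen in the bicarbonate carrier *Slc4a8* (log2 fold change -0.70 ± 0.23, q = 0.0412) and the sulfate carrier *Slc26a2* (log2 fold change -0.38 ± 0.11, q = 0.0216), and without WT replicate 4 the q of *Slc4a8* was 0.067. Among the ion partners, the sodium pump subunit *Atp1b2* (log2 fold change 0.42 ± 0.07, q = 0.00117) and the water channel *Aqp1* (log2 fold change 0.93 ± 0.24, q = 0.0132) rose. *Aqp1* was highest in rd6 replicates 1, 2 and 3, at 3781, 2968 and 2466, which also had the highest sums of endothelial markers (21529, 21440 and 15956). Over all libraries these sums were 6156 to 11923 in WT and 8706 to 21529 in rd6, with 4 of 7 markers higher, and their part in the rise was not tested. The chloride transporter *Clcn4* fell (log2 fold change -0.22 ± 0.06, q = 0.0263). The pump subunit *Atp1b1* (log2 fold change 0.18 ± 0.10, q = 0.223) and the carbonic anhydrases *Car14* (log2 fold change -0.24 ± 0.11, q = 0.135) and *Car12* (log2 fold change -0.19 ± 0.10, q = 0.187) did not pass.

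Of the 16 carriers of amines, creatine, taurine and vesicular transmitters, 2 fell, 2 rose and 12 did not pass. Both falls were past the fold limit and in neighboring genes of chromosome 6. *Slc6a13* (chromosome 6, 121300227 to 121337733, + strand), the GABA and taurine carrier GAT2, was at 21756 to 27798 normalized counts in WT (median 26439) and 9347 to 16255 in rd6 (median 11304). It was 2.24-fold lower, with no overlap (log2 fold change -1.16 ± 0.11, q = 1.3e-05), although rd6 replicate 6, at 16255, stood above the other rd6 libraries. *Slc6a12* (chromosome 6, 121343076 to 121365775, + strand), the betaine and GABA carrier BGT1, was at 77.5 to 405 normalized counts in WT (median 126) and 23.9 to 86.3 in rd6 (median 57.4) (log2 fold change -1.47 ± 0.40, q = 0.0184). It met the rule through WT, the group where it is high, with means of 164 ± 119.8 in WT and 55.4 ± 24.9 in rd6 (SD, n = 6), so its fold change is a description. WT replicate 4 held 405, and without it the log2 fold change was -1.17 with q = 0.0178.

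The other abundant members of the family did not pass the test. The taurine carrier *Slc6a6* was at 18149 to 30414 normalized counts in WT (median 23265) and 17901 to 20068 in rd6 (median 18718) (log2 fold change -0.27 ± 0.11, q = 0.0994). Its highest WT value, 30414, was that of replicate 4. Without WT replicate 5, its lowest WT value at 18149, the q was 0.0376. *Slc6a20a*, an imino acid carrier, was at 20553 to 27398 normalized counts in WT (median 26528) and 25649 to 35575 in rd6 (median 26635) (log2 fold change 0.15 ± 0.10, q = 0.283). It has a close paralog, *Slc6a20b*, beside it on chromosome 9, and reads could be shared between them. The glycine carrier *Slc6a9* was at 12160.4 to 18631 normalized counts in WT (median 16108) and 13539.7 to 18909 in rd6 (median 14290.2) (log2 fold change -0.07 ± 0.11, q = 0.691), with 27.8% of its exonic bases shared with other annotated genes. The rises were modest, in the vesicular carrier *Slc6a17* (log2 fold change 0.31 ± 0.06, q = 0.00311) and the lysosomal sialic acid carrier *Slc17a5* (log2 fold change 0.28 ± 0.06, q = 0.00629). The creatine carrier *Slc6a8* was at 427 to 1254 normalized counts in WT (median 569) and 694 to 1199 in rd6 (median 798) and did not pass (log2 fold change 0.49 ± 0.23, q = 0.153). Its highest WT value was that of replicate 4, and without that library the log2 fold change was 0.70 with q = 0.00744.

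Of the 21 carriers of organic ions, peptides, bile acids and dicarboxylates, 5 fell, 5 rose and 11 did not pass. *Slc47a1* (chromosome 11, 61343401 to 61378345, - strand), the proton-coupled organic cation exporter MATE1, was at 95.7 to 167 normalized counts in WT (median 131) and 25.7 to 66.9 in rd6 (median 37.4), with no overlap (log2 fold change -1.76 ± 0.22, q = 0.000119). It met the rule through WT, the group where it is high, with means of 133 ± 24 in WT and 40.3 ± 15.4 in rd6 (SD, n = 6), and its fold change is a description. At these low levels the added 1 understates the fold change. The organic anion carrier *Slc22a8* (OAT3) was at 8888 to 12984 normalized counts in WT (median 11917) and 5694 to 7683 in rd6 (median 6711), also without overlap, and at 1.74-fold it lay just inside the fold limit (log2 fold change -0.80 ± 0.09, q = 5.43e-05). *Slc22a17*, the lipocalin receptor of the same family, was at 7165 to 9221 normalized counts in WT (median 8863) and 11058 to 13170.2 in rd6 (median 11343) and rose without overlap (log2 fold change 0.46 ± 0.07, q = 0.000466). The dicarboxylate carrier *Slc13a3* was at 4131 to 6433 normalized counts in WT (median 6199.9) and 4919 to 8950.5 in rd6 (median 5586) and did not pass (log2 fold change 0.07 ± 0.15, q = 0.773).

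Of the 7 members of the SLCO (OATP) family, which carry thyroid hormones, steroids, prostaglandins and drugs, 3 fell and 3 rose. *Slco1c1*, the thyroxine carrier, was at 7664 to 11002 normalized counts in WT (median 9961) and 4863 to 7772 in rd6 (median 5459.7) (log2 fold change -0.77 ± 0.12, q = 0.000583). The groups overlapped through the lowest WT library, replicate 4, and the highest rd6 library, replicate 6. *Slco1a4*, a carrier of organic anions, was at 12919.8 to 17367 normalized counts in WT (median 16485) and 9633 to 12389.9 in rd6 (median 11233) with no overlap (log2 fold change -0.52 ± 0.08, q = 0.000509). Its near relative *Slco1a5* moved the other way, at 744 to 893 normalized counts in WT (median 857) and 1019 to 1577 in rd6 (median 1287), again with no overlap (log2 fold change 0.57 ± 0.10, q = 0.00107). The ratio of *Slco1a5* to *Slco1a4* was 0.05 to 0.0576 in WT and 0.0991 to 0.135 in rd6, which follows from the values of the 2 genes, and that of *Slco1c1* to *Slco1a4* went from 0.523 to 0.704 down to 0.453 to 0.627. *Slco1a4* and *Slco1a5* belong to a group of similar paralogs, and reads that match more than 1 of them make their values uncertain.

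The other 3 that passed were at low levels. *Slco4a1*, a thyroid hormone carrier, was at 156 to 352 normalized counts in WT (median 217) and 85.2 to 213 in rd6 (median 99.3) and fell (log2 fold change -0.95 ± 0.25, q = 0.0161), with WT replicate 4 highest at 352 and a log2 fold change without it of -0.82 with q = 0.0251. *Slco2b1* was at 136 to 228 normalized counts in WT (median 170.1) and 301 to 419.5 in rd6 (median 366) and rose with no overlap (log2 fold change 1.05 ± 0.16, q = 0.000398). The prostaglandin carrier *Slco2a1* rose with overlap (log2 fold change 0.76 ± 0.25, q = 0.0413), and its q without WT replicate 4 was 0.0618. *Slco2a1* is also found in endothelial cells, whose marker sums are given above, and *Slco2b1* in macrophages. Their part was not tested.

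Of the 28 amino acid carriers, 5 fell, 1 rose and 22 did not pass. *Slc7a5* (LAT1), the carrier of large neutral amino acids, was at 5287 to 9914 normalized counts in WT (median 6427) and 3878 to 5243 in rd6 (median 4628) without overlap (log2 fold change -0.58 ± 0.14, q = 0.00863), whereas the heavy chain it pairs with, *Slc3a2*, was at 8849 to 10381 normalized counts in WT (median 9393) and 9175 to 10448 in rd6 (median 10014) and did not pass (log2 fold change 0.06 ± 0.05, q = 0.486). The ratio of *Slc7a5* to *Slc3a2* was 0.558 to 0.955 in WT and 0.391 to 0.513 in rd6. The glutamine carrier *Slc38a1*, at 6531 to 8922 normalized counts in WT (median 8145) and 5337 to 6333 in rd6 (median 5934), fell without overlap (log2 fold change -0.43 ± 0.07, q = 0.00132), as did the arginine and lysine carrier *Slc7a1* (log2 fold change -0.48 ± 0.10, q = 0.00339). *Slc43a2*, another carrier of large neutral amino acids (log2 fold change -0.42 ± 0.11, q = 0.0172), and *Slc38a9*, an arginine sensor of the lysosome (log2 fold change -0.27 ± 0.08, q = 0.0288), fell with overlap.

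Mitochondrial and SLC6 carriers of amino acids were counted in other groups. Among the 28 genes grouped as amino acid carriers, only *Slc36a2*, a proton-coupled carrier of glycine and proline, rose. It was at 112 to 178 normalized counts in WT (median 155) and 250.5 to 582 in rd6 (median 277), with no overlap (log2 fold change 1.08 ± 0.19, q = 0.00127). The upper end was set by rd6 replicate 6, and without it the log2 fold change was 0.91 with q = 0.000269. *Slc1a1* (EAAT3), the most abundant member, was at 39419 to 51503 normalized counts in WT (median 49309) and 36145 to 47587 in rd6 (median 43761) and did not pass (log2 fold change -0.15 ± 0.09, q = 0.237), with 31.9% of its exonic bases shared with an antisense gene. *Slc38a3*, a glutamine carrier, did not pass either (log2 fold change -0.10 ± 0.08, q = 0.401), nor did the glutamine carriers *Slc38a2* (log2 fold change -0.37 ± 0.26, q = 0.327) and *Slc1a5* (log2 fold change 0.06 ± 0.13, q = 0.771) or the cystine carrier *Slc7a11* (log2 fold change 0.44 ± 0.81, q = 0.734).

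Of the 3 calcium exchangers, *Slc24a1* and *Slc8a3* fell. *Slc24a1*, the potassium-dependent exchanger of rod outer segments, was at 30018 to 43610.0 normalized counts in WT (median 39956) and 19016 to 25874 in rd6 (median 22978) in these RPE libraries with no overlap (log2 fold change -0.78 ± 0.10, q = 0.000119), and without WT replicate 4 the log2 fold change was -0.85 with q = 1.09e-05. Its ratio to *Slc4a5* was 0.603 to 0.68 in WT and 0.459 to 0.53 in rd6. *Slc24a1* lies on chromosome 9, 20.8 megabases from *Mfrp*. Rod marker sums were 31288 to 66364 in WT and 16430 to 58271 in rd6, with 3 of 9 lower. In rd6 replicate 5 the rod sum was the highest of its group and *Slc24a1* the lowest, at 19016. The part of rods in the fall was not tested. The vesicular glutamate carrier *Slc17a7*, which photoreceptors use at their synapse, was highest of all in that library, at 1590.0, with a median of 440 in rd6, and did not pass (log2 fold change -0.90 ± 0.37, q = 0.103). Without rd6 replicate 5, the values of *Slc17a7* and of the neuronal chloride carrier *Slc12a5* passed q and the fold limit as lower. *Slc8a3*, a sodium calcium exchanger of nerve and muscle, was scarce, at 176 to 279.7 normalized counts in WT (median 216) and 112 to 213 in rd6 (median 135) (log2 fold change -0.56 ± 0.16, q = 0.0239).

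A group of SLC genes followed WT replicate 4. In 23 of the 231 its value was over 2 times the mean of the other WT libraries, and 8 genes would have missed the limit on the WT mean without it. *Slc6a14*, an amino acid carrier of epithelia, was at 2983 in that library and at 0 to 243 in the other WT libraries, with 9.55 to 1874 in rd6 (median 356). *Slc34a2*, *Slc5a8*, *Slc5a1* and *Slc28a3*, carriers of phosphate, monocarboxylates, glucose and nucleosides in epithelia, behaved likewise, with WT replicate 4 at 839, 936, 1798 and 730.3 normalized counts. These genes were high in rd6 replicates 1 and 5 too, the libraries with the next highest keratin sums (29404 and 41600). None of the 5 passed the test, with q from 0.518 to 0.612. The same library was the lowest WT value for 19 of the 20 most abundant SLC genes.

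**Figure D4:**
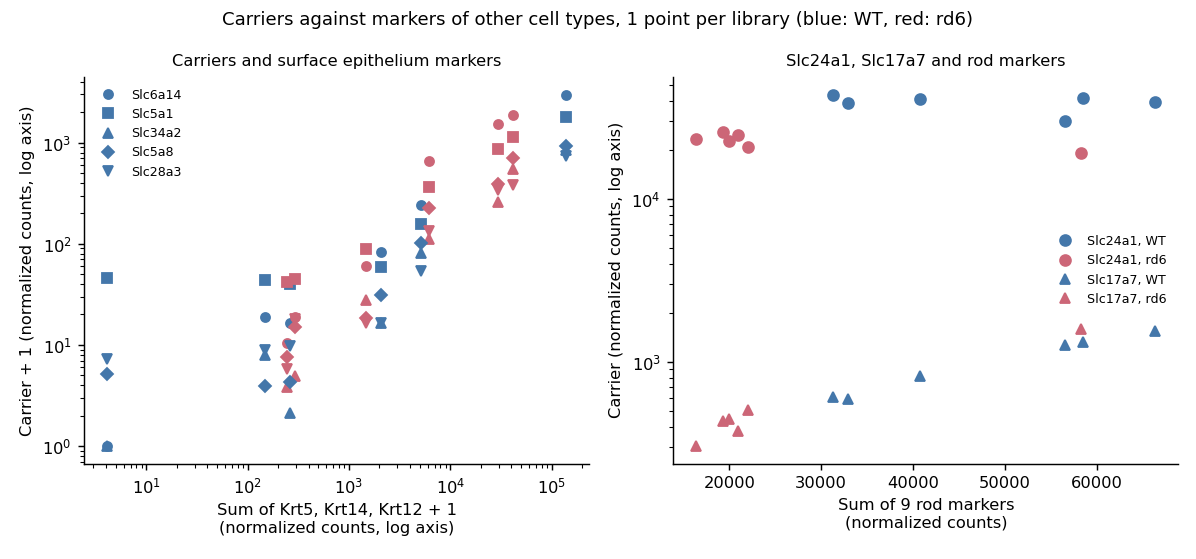
Left, normalized counts of 5 SLC genes against the summed surface epithelium keratins in each library (both log axes, 1 added). Right, *Slc24a1* and *Slc17a7* (log axis) against the sum of 9 rod markers. Points are single libraries, WT in blue and rd6 in red. On the left the 5 carriers are highest in the 3 libraries with the highest keratin sums, and on the right every rd6 point of *Slc24a1* lies below every WT point.

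Of the 29 carriers of nucleosides, nucleotide sugars and sugar phosphates, 3 rose, 3 fell and 23 did not pass. *Slc37a2* (chromosome 9, 37227585 to 37255738, - strand), an exchanger of glucose 6-phosphate and phosphate in the endoplasmic reticulum, had the largest rise of the SLC genes that passed the test. It was at 1915 to 2789.8 normalized counts in WT (median 2419) and 5368 to 8777 in rd6 (median 6461). The genotypes were far apart, and the level was 2.72-fold higher in rd6 (log2 fold change 1.44 ± 0.12, q = 3.44e-06). *Slc37a4*, which feeds glucose 6-phosphate to the phosphatase of the same compartment, was at 399 to 469 normalized counts in WT (median 406) and 344 to 389 in rd6 (median 358) and fell without overlap (log2 fold change -0.20 ± 0.06, q = 0.0288), as did *Slc37a3* (log2 fold change -0.34 ± 0.05, q = 0.000629). The ratio of *Slc37a2* to *Slc37a4* was 4.61 to 6.82 in WT and 13.8 to 23.4 in rd6, a separation that follows from those of the 2 genes. *Slc37a2* and *Slc37a4* lie 6.85 and 0.288 megabases from *Mfrp* on chromosome 9, where strain differences cannot be told apart from the allele. *Slc37a2* is also found in macrophages, whose 9 markers had a median log2 fold change of 2.67. Among them *Cx3cr1* went from a mean of 60.8 ± 25.3 in WT to 633 ± 173 in rd6 (SD, n = 6), while *Csf1r*, at 17256 ± 2183 and 18740.5 ± 1810.4, did not pass. The mean of *Slc37a2* was 2389 ± 321 and 6541 ± 1235. The part of these cells in the rise was not tested.

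Of the 3 equilibrative nucleoside carriers, 2 rose. *Slc29a1* (ENT1) was at 521 to 601 normalized counts in WT (median 559) and 793 to 924 in rd6 (median 859) with no overlap and little spread (log2 fold change 0.61 ± 0.06, q = 8.2e-06). *Slc29a3*, its lysosomal relative, was at 328 to 507 normalized counts in WT (median 377) and 493 to 628 in rd6 (median 549.8) and overlapped (log2 fold change 0.52 ± 0.10, q = 0.00218). *Slc29a2* (ENT2) was at 75.9 to 159 normalized counts in WT (median 115) and 96.4 to 127 in rd6 (median 119) and did not pass (log2 fold change 0.03 ± 0.16, q = 0.923). Of the 20 genes of the SLC35 family, nucleotide sugar carriers and relatives, only *Slc35a3*, which carries UDP-N-acetylglucosamine into the Golgi, passed the test (log2 fold change -0.38 ± 0.10, q = 0.019). The log2 fold changes of the other 19 lay between -0.22 and 0.31.

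The 39 mitochondrial carriers stayed within the fold limit except for *Slc25a34*, with 6 lower, 3 higher and 30 not passing. *Slc25a34* was at 89.8 to 212 normalized counts in WT (median 188) and 42.4 to 137 in rd6 (median 66.7) (log2 fold change -1.21 ± 0.30, q = 0.0112). It too met the rule through WT, where its mean was 163 ± 53.9 against 71.5 ± 33.8 in rd6 (SD, n = 6), and its fold change is a description. The highest rd6 value was that of replicate 1, at 137, and the groups overlapped. Both aspartate glutamate carriers of the malate aspartate shuttle rose without overlap. *Slc25a12* was at 3873 to 4952 normalized counts in WT (median 4807) and 5048 to 5931 in rd6 (median 5356) (log2 fold change 0.22 ± 0.06, q = 0.025), and *Slc25a13* at 767 to 876 normalized counts in WT (median 806) and 879.7 to 1231 in rd6 (median 1028) (log2 fold change 0.35 ± 0.08, q = 0.00581). The pyrimidine nucleotide carrier *Slc25a33* also rose (log2 fold change 0.36 ± 0.10, q = 0.0272). The glutamate carrier *Slc25a22* (log2 fold change -0.46 ± 0.09, q = 0.00315) and *Slc25a53* (log2 fold change -0.46 ± 0.10, q = 0.00399) fell without overlap. The coenzyme A carrier *Slc25a42* (log2 fold change -0.36 ± 0.11, q = 0.0279) and the branched-chain amino acid carrier *Slc25a44* (log2 fold change -0.24 ± 0.06, q = 0.0138) fell with overlap. The ADP/ATP carrier *Slc25a4*, by far the most abundant in the group, was at 25452 to 33121 normalized counts in WT (median 29026) and 27754 to 33014 in rd6 (median 29269) and did not pass (log2 fold change 0.04 ± 0.07, q = 0.7).

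Of the 27 metal carriers, 3 rose, 2 fell and 22 did not pass, and all 3 rises were in the SLC39 (ZIP) family, which brings zinc and other metals into the cytosol. *Slc39a14* (ZIP14), which also carries iron and manganese, was at 1140.2 to 1548 normalized counts in WT (median 1359.9) and 1819 to 2219.7 in rd6 (median 2037) with no overlap (log2 fold change 0.58 ± 0.08, q = 0.000161). *Slc39a1* was at 1899 to 2137 normalized counts in WT (median 2016) and 2349 to 2564 in rd6 (median 2448), a small change with very little spread (log2 fold change 0.28 ± 0.04, q = 0.000559), and *Slc39a11* rose with overlap (log2 fold change 0.31 ± 0.10, q = 0.0371). The magnesium carrier *Slc41a2* (log2 fold change -0.48 ± 0.13, q = 0.0182) and the zinc carrier *Slc30a5* of the secretory pathway (log2 fold change -0.28 ± 0.08, q = 0.0269) fell. The heme carrier *Slc48a1*, the most abundant of the group, was at 16052 to 23692 normalized counts in WT (median 21172) and 14831 to 19594 in rd6 (median 17545) and did not pass (log2 fold change -0.27 ± 0.10, q = 0.0637), with a log2 fold change without WT replicate 4 of -0.34 with q = 0.00526. *Slc39a12*, another zinc importer, was at 7362 to 9246 normalized counts in WT (median 8850.2) and 5837 to 9118 in rd6 (median 7648) and did not pass (log2 fold change -0.22 ± 0.10, q = 0.136), while without rd6 replicate 4 its q was 0.0482. The iron carrier *Slc11a1* of macrophage phagosomes was at 49.3 to 254 normalized counts in WT (median 109) and 142 to 475 in rd6 (median 253) and did not pass (log2 fold change 0.99 ± 0.41, q = 0.104), and without WT replicate 4 its log2 fold change was 1.19 with q = 0.046.

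Of the 14 carriers of vitamins, choline and lipids, 4 fell, 2 rose and 8 did not pass. The thiamine and folate carriers of the SLC19 family diverged. The thiamine carrier *Slc19a2* was at 3503 to 4024 normalized counts in WT (median 3768) and 1787 to 2559 in rd6 (median 2444) with no overlap (log2 fold change -0.69 ± 0.08, q = 6.29e-05). The reduced folate carrier *Slc19a1* was at 4396 to 6441 normalized counts in WT (median 5914) and 6596 to 8548 in rd6 (median 7609), with all rd6 libraries above all WT libraries (log2 fold change 0.39 ± 0.09, q = 0.00782). The riboflavin carrier *Slc52a2* rose without overlap (log2 fold change 0.34 ± 0.08, q = 0.0112), and the vitamin C carrier *Slc23a2*, at 2832 to 3400.3 normalized counts in WT (median 3063) and 2801 to 3558 in rd6 (median 3179), did not pass (log2 fold change 0.03 ± 0.07, q = 0.825). *Slc44a3*, of the choline carrier family, was at 157 to 231 normalized counts in WT (median 204) and 84 to 272 in rd6 (median 92.6) (log2 fold change -0.83 ± 0.25, q = 0.0319). All but 1 rd6 library lay below WT, the exception being replicate 6 at 272, and its q rose to between 0.054 and 0.0692 when any 1 of 9 other libraries was left out. The fatty acid carrier *Slc27a1* (log2 fold change -0.35 ± 0.10, q = 0.0271) and *Slc23a4* (log2 fold change -0.27 ± 0.08, q = 0.0259) fell with overlap. Leaving out WT replicate 1 or 2 or rd6 replicate 1, 2 or 3 gave q values for *Slc27a1* of 0.0517 to 0.0626.

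Of the remaining genes, the 3 carriers of phosphate and urea did not pass. Among them was the sodium phosphate carrier *Slc20a2*, at 12237 to 14689 normalized counts in WT (median 14331) and 10521 to 14178 in rd6 (median 12203) (log2 fold change -0.19 ± 0.07, q = 0.0693). The scaffold gene *Slc9a3r2*, no carrier itself, was at 759 to 1643 normalized counts in WT (median 1103) and 1291 to 3217 in rd6 (median 2041) and rose (log2 fold change 0.83 ± 0.26, q = 0.0348), and its q was 0.064 to 0.0788 when WT replicate 1, 2 or 6 or rd6 replicate 1, 2 or 3 was left out. It was highest in rd6 replicates 1, 2 and 3, at 3012, 3217 and 2520.0, the libraries with the highest endothelial marker sums (21529, 21440 and 15956). In WT, replicates 3 and 5 were the highest for both. The part of endothelial cells in the rise was not tested. The related scaffold *Slc9a3r1*, abundant in RPE, was at 12491 to 19532 normalized counts in WT (median 18358) and 11407 to 17545 in rd6 (median 13644) and did not pass (log2 fold change -0.30 ± 0.12, q = 0.0993), with a log2 fold change without WT replicate 4 of -0.39 with q = 0.0121. *Slc7a6os* fell slightly (log2 fold change -0.23 ± 0.07, q = 0.0223).

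At the limit of the rule, *Slc16a11* (WT mean 101) and *Slc16a3* (111) lay just inside, and *Slc1a4* (99.9) and *Slc25a48* (84.8) just outside. *Slc16a11* was inside through WT replicate 4, at 305, and without it the WT mean was 60.6. The WT mean of *Slc25a48* came from replicate 4, at 466, with 0 to 25.8 in the other WT libraries.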

How the data were processed

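Total RNA from the RPE of both eyes of 1 mo WT and rd6 mice was made into stranded libraries by the authors. Their reads were aligned to mm10 and assigned to genes by Rsubread at its standard settings. The submitters' processing notes name bcl2fastq, FastQC and DESeq2, with no versions. The Rsubread version, and with it the handling of strand and of reads matching several genes, was not spelled out. The deposited signal is the number of reads of a gene in a library after division by that library's DESeq2 size factor (normalized counts). The deposited fold changes and p-values of the authors were not used. In each library 100% of the values were whole multiples of 1 read (tolerance 0.01 reads), and the recovered reads sum to 28907262 to 33152725. The chi-square per gene was at least 9.45 in each of 66 pairs of libraries, and none was taken as a copy of another. Depth covers counting error only.

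Normalized values were tested with limma 3.58.1 in R 4.3.3 (lmFit, eBayes with a trend) after adding 1 and taking log2. Genotype was the only term, and 17768 genes whose mean reached 10 entered the fit. The script was tested on simulated data. Limits were q below 0.05 and, where stated, a log2 fold change of at least 0.81 in size (the fold limit of the study). edgeR 4.0.16 and DESeq2 1.42.0 on recovered reads were alternatives. Ratios of 2 genes within a library are given as a description, and no test of them is used. The other alternatives were pseudocounts of 0.1 and 10, other filters, TMM rescaling, the replicate number as a block, leaving out each library in turn, and other limits for membership. Leaving out the 3 libraries richest in surface epithelium markers was added after the data were seen.

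Coordinates are from GENCODE M21 (GRCm38). Of the 231 SLC genes, 64 share exonic bases with another annotated gene, 8 of them over 20%. Members, substrate groups and lists were chosen with earlier results of these data known. Genes named are the 10 most abundant, those past q and the fold limit, a list of RPE carriers and those next to the limit on the WT mean. Partners past both limits were also named, together with most genes of each group that passed q. Some genes are not reported here. The choice of these others followed a look at their values: *Slc6a9*, *Slc9a3r1*, *Slc38a3*, *Slc48a1*, *Slc11a1*, *Slc20a2*, *Slc29a2*, *Slc17a7*, *Slc12a5* and the 5 genes that followed WT replicate 4.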

Additional observations from a re-analysis of the deposited data

Results flagged for a closer look

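Among the 45 named genes, each genotype of 6 libraries was checked for a library whose gap to its neighbor exceeded 0.625 of the range of the group (Dixon's limit), which chance exceeds in about 1 of 20 groups. It was exceeded in 24 of 90 groups, and in 16 of them the library was WT replicate 4.

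WT replicate 4 was the lowest WT library for abundant carriers, with normalized counts of 49104 for *Slc4a5*, 40471 for *Slc16a8*, 39419 for *Slc1a1*, 30018 for *Slc24a1*, 21335 for *Slc4a2*, 20553 for *Slc6a20a*, 8888 for *Slc22a8* and 4396 for *Slc19a1*. It was the highest WT library for scarcer ones, with 2888 for *Slc38a2*, 1346 for *Slc26a4*, 1254 for *Slc6a8*, 808 for *Slc7a11*, 466 for *Slc25a48*, 405 for *Slc6a12*, 305 for *Slc16a11* and 219 for *Slc1a4*. The same library held the highest sum of *Krt5*, *Krt14* and *Krt12*.

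Among the rd6 groups past Dixon's limit, replicate 6 was the highest library for 5 genes, with 16255 for *Slc6a13*, 8950.5 for *Slc13a3*, 7772 for *Slco1c1*, 582 for *Slc36a2* and 272 for *Slc44a3*. Replicate 3 was highest for *Slc1a5* at 526, replicate 1 for *Slc25a34* at 137 and replicate 5 for *Slc16a11* at 935.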

How the results depend on the processing

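Of 943 gene values under an alternative, for 45 genes, 885 kept their direction and their side of q = 0.05, 34 lost and 9 gained a q below 0.05 and 15 changed sign. Of the 23 of these genes that passed q, 0 changed sign and 14 passed under every alternative run. Among the genes past the fold limit, *Slc44a3* had q = 0.0532 with DESeq2 and 0.1 with edgeR, and both gained *Slco2a1*.

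Same-numbered WT and rd6 libraries were of different animals, and the correlations of their deviations were -0.552, 0.0251, 0.315, -0.743, -0.532 and 0.0138, so the numbers were not taken as pairs. The best match of a WT library was the same-numbered rd6 library in 0 of 6 cases. With the replicate block, 3 SLC genes were lower past the fold limit and 24 at q alone, against 7 and 42. Higher were 4 past the fold limit and 18 at q alone, against 5 and 26. *Slc25a34*, *Slc44a3*, *Slc6a12*, *Slc9a3r2* and *Slco4a1* were the genes lost past the fold limit.

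Leaving out 1 library in turn gave 4 to 8 genes higher and 6 to 10 lower past the fold limit, and 21 to 32 higher and 34 to 55 lower at q alone. WT replicate 4 and rd6 replicate 5 each gave 8 higher. Without the 3 libraries richest in keratins, 11 were lower past the fold limit. With members taken by an rd6 mean of at least 100, 8 were higher and 4 lower past the fold limit. With a WT mean of at least 1000 there were 2 and 2, and 10 higher and 29 lower at q alone, since fewer genes were counted.

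The sign changed only for genes that did not pass q. Leaving out 1 library in turn gave log2 fold changes of -0.0204 to 0.12 for *Slc1a5*, -0.0492 to 0.12 for *Slc13a3*, -0.13 to 0.29 for *Slc1a4*, -0.0033 to 1.45 for *Slc26a4*, -0.0095 to 0.0595 for *Slc23a2*, -0.0281 to 1.00 for *Slc7a11* and -0.26 to 0.0137 for *Slc4a4*. For *Slc7a11* it was -0.16 with DESeq2 and -0.15 with edgeR. Apart from membership and libraries left out, the cause was not tested. The median of all genes moved by less than 0.1 under every scaling.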

Other observations

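Of the 132 carrier genes below the limit on the WT mean, 62 had enough reads to be tested, and 8 of them were higher (12.9%) and 4 lower (6.45%) at q below 0.05, beside 11.4% and 11.6% of all genes tested. Their selection by low WT values favors rises, so these counts are given as a description. *Slc8a1*, the sodium calcium exchanger of heart and other tissues, was at 8.86 to 32 normalized counts in WT (median 15.2) and 85.2 to 138 in rd6 (median 113), with every rd6 library above every WT library (log2 fold change 2.65 ± 0.29, q = 3.08e-05). *Slc15a3*, a peptide and histidine carrier of lysosomes in immune cells, was at 30.6 to 74.4 normalized counts in WT (median 46.1) and 98.8 to 156 in rd6 (median 142) (log2 fold change 1.47 ± 0.20, q = 0.000186). *Slc2a6*, a sugar carrier of lysosomes, was at 7.77 to 14.5 normalized counts in WT (median 13.1) and 22.3 to 51.5 in rd6 (median 37.7) (log2 fold change 1.58 ± 0.23, q = 0.000391). *Slc7a7*, a cationic amino acid carrier found in macrophages, was at 50.6 to 75.7 normalized counts in WT (median 62.1) and 85.8 to 159.8 in rd6 (median 115) (log2 fold change 0.88 ± 0.16, q = 0.00187). Microglia and macrophage markers rose in the same libraries, and their part in these values was not tested.

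The falls are a description too, and *Slco1b2* and *Slc16a14*, with rd6 means below the 10 needed for testing, passed that filter through WT. *Slc18a2*, the vesicular monoamine carrier, was at 34.1 to 109.9 normalized counts in WT (median 82.7) and 10.8 to 40.0 in rd6 (median 23.8) (log2 fold change -1.65 ± 0.36, q = 0.00601). *Slco1b2*, an organic anion carrier best known from liver, was at 18.6 to 47.7 normalized counts in WT (median 24.6) and 4.77 to 11.7 in rd6 (median 8.35) (log2 fold change -1.65 ± 0.27, q = 0.000786). *Slc16a14*, an orphan of the monocarboxylate family, was at 14.4 to 52.3 normalized counts in WT (median 27.2) and 6.19 to 15.5 in rd6 (median 9.11) (log2 fold change -1.49 ± 0.32, q = 0.00472), and *Slc7a3*, a cationic amino acid carrier, at 32.1 to 73 normalized counts in WT (median 46.6) and 16.4 to 37.9 in rd6 (median 22.4) (log2 fold change -1.02 ± 0.23, q = 0.00687).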
